A study of Homo sapiens with 48 samples.

Results

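The genes described here are 10 feedback targets of the Wnt and β-catenin pathway: AXIN2, LGR5, NKD1, RNF43, ZNRF3, ASCL2, SP5, LEF1, TCF7 and NOTUM. They were taken by symbol from the matrix of raw gene counts, and each of the 10 was found as 1 row among the 33892 rows. The rule sets no threshold on a measured value.

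Wnt ligands bind Frizzled receptors and LRP co-receptors and thereby stop a cytoplasmic complex of APC, Axin, GSK3 and casein kinase from marking β-catenin for destruction by the proteasome. β-catenin that accumulates enters the nucleus, binds TCF and LEF proteins and switches on target genes, and several of these targets act back on the pathway. In the intestine this circuit maintains the stem cells at the base of the crypts, and in most colorectal cancers it is active without a ligand. DLD-1 is known as a line with truncated APC and RKO as a line with intact APC, but no genotype was examined here.

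Total RNA of 8 established human cancer cell lines was sequenced after 24 h with carfilzomib, an irreversible proteasome inhibitor, or with the solvent DMSO. RKO and DLD-1 are labelled as colon cancer, H-23 and H-1299 as lung cancer, PANC-1 and CAPAN-2 as pancreatic cancer, and H-929 and RPMI as multiple myeloma. Each line received its own concentration, set from the inhibition of its proteasome activity, so doses differed between lines, and the concentrations were not used here. Each of the 16 groups held 3 biological replicates of 1 line, so p-values measure the spread between cultures of that line and not between tumours.

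Library totals ran from 9116329 to 64369098 counts over the 48 libraries, from 12649819 to 22555980 in RKO and from 24420936 to 48857915 in DLD-1. The intestinal label was checked with CDX1, CDX2, VIL1, CDH17, LGALS4, KRT20 and GPA33. Levels are given in CPM, the usual unit of counts scaled to the size of the library. The summed level of these 7 was 246 to 270 CPM in the DMSO libraries of DLD-1, with LGALS4 and KRT20 at 0. In RKO it was 21 to 22.7 CPM, nearly all of it CDX2 (20.9 ± 0.755), with CDX1, LGALS4, KRT20 and GPA33 at 0. The epithelial adhesion gene EPCAM stood at 7.73 ± 1.41 CPM in RKO and 730.2 ± 10.7 CPM in DLD-1 (mean ± SD, n = 3). Thus 4 of 7 intestinal markers were undetected in RKO, and the part of this difference between the lines in the results below was not tested.

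The targets lie on 8 chromosomes in GENCODE release 29 (GRCh38). AXIN2, RNF43 and NOTUM are on the reverse strand of chromosome 17, at 65528563-65561647, 58352500-58417595 and 81952507-81961840. LGR5 is at chr12:71439770-71586310, NKD1 at chr16:50548330-50649249, ZNRF3 at chr22:28883592-29057487, SP5 at chr2:170715351-170718078 and TCF7 at chr5:134114711-134151865, all on the forward strand. ASCL2 is at chr11:2268495-2270952 and LEF1 at chr4:108047545-108168956, on the reverse strand. TCF7 shares 210 exonic bases with SKP1 on the opposite strand, and RNF43 shares 1521 with TSPOAP1-AS1 on the opposite strand and 143 with SUPT4H1 on its own strand. LEF1 shares 279 with LEF1-AS1, LGR5 208 with AC078860.1 and NKD1 67 with AC007608.1, all on the opposite strand. LEF1-AS1 stood at 0.668 CPM or less in the DMSO means of the lines, and AC078860.1 and AC007608.1 were not matched to a row by symbol. On the same strand RNF43 also shares 4326 exonic bases with AC004687.2, and AXIN2 shares 1316 with AC004805.1, neither of which was matched to a row of the matrix by symbol. Whether counting used the strand is not given in the sources used here, so reads of these partners and of the targets cannot be told apart.

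TCF and LEF proteins recognise the short motif CTTTGAT or CTTTGTT, and promoter windows from RefSeq (GRCh38.p14, 250 bases before to 50 after a start) were searched for it on both strands. Windows matched 4 of the 10 targets, SP5 and LEF1 with 1 start each and TCF7 and RNF43 with more than 1, giving 6 windows. The motif was found in 2 of the 6, against 2672 of all 35116 windows (7.61%). The bases before those 2 starts are printed because SP5 and TCF7 encode transcription factors of the pathway whose own windows hold the motif, which stands in capitals. In SP5 it is CTTTGAT on the gene's strand, 109 to 103 bases before the start, in a stretch where GENCODE has no gene. In TCF7 it is CTTTGTT on the opposite strand, 50 to 44 bases before the second start, inside an intron of the longer transcripts. A match describes these letters and is no evidence of binding.
SP5, chr2:170715087-170715336, forward strand: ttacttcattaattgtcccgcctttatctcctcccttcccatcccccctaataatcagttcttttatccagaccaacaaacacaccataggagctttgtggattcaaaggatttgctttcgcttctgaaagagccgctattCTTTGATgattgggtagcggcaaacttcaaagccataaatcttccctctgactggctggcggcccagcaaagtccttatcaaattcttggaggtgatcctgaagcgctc
TCF7, chr5:134123368-134123617, forward strand: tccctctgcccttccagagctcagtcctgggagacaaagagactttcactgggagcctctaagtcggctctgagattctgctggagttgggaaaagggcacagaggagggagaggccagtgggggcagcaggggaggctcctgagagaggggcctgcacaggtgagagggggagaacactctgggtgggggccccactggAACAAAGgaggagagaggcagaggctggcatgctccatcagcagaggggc

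The first question was how much of each target the untreated lines contain. All 10 targets differed between the 8 lines in their DMSO libraries, in a background in which 98.8% of the 21116 genes tested did so (edgeR's quasi-likelihood test, Benjamini-Hochberg adjusted p under 0.05). DLD-1 had the highest level of 6 targets (AXIN2, LGR5, RNF43, ZNRF3, ASCL2 and SP5), RKO of 3 (NKD1, LEF1 and TCF7) and H-23 of NOTUM. All 10 were at 1 CPM or more in DLD-1, 8 in H-23, 7 each in RKO and H-929, 6 in PANC-1, 5 in CAPAN-2, and 4 each in H-1299 and RPMI. Levels between lines are CPM after TMM normalization over all 48 libraries, and neighbours in an order were compared within the 24 DMSO libraries by the same test.

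**Figure D1:**
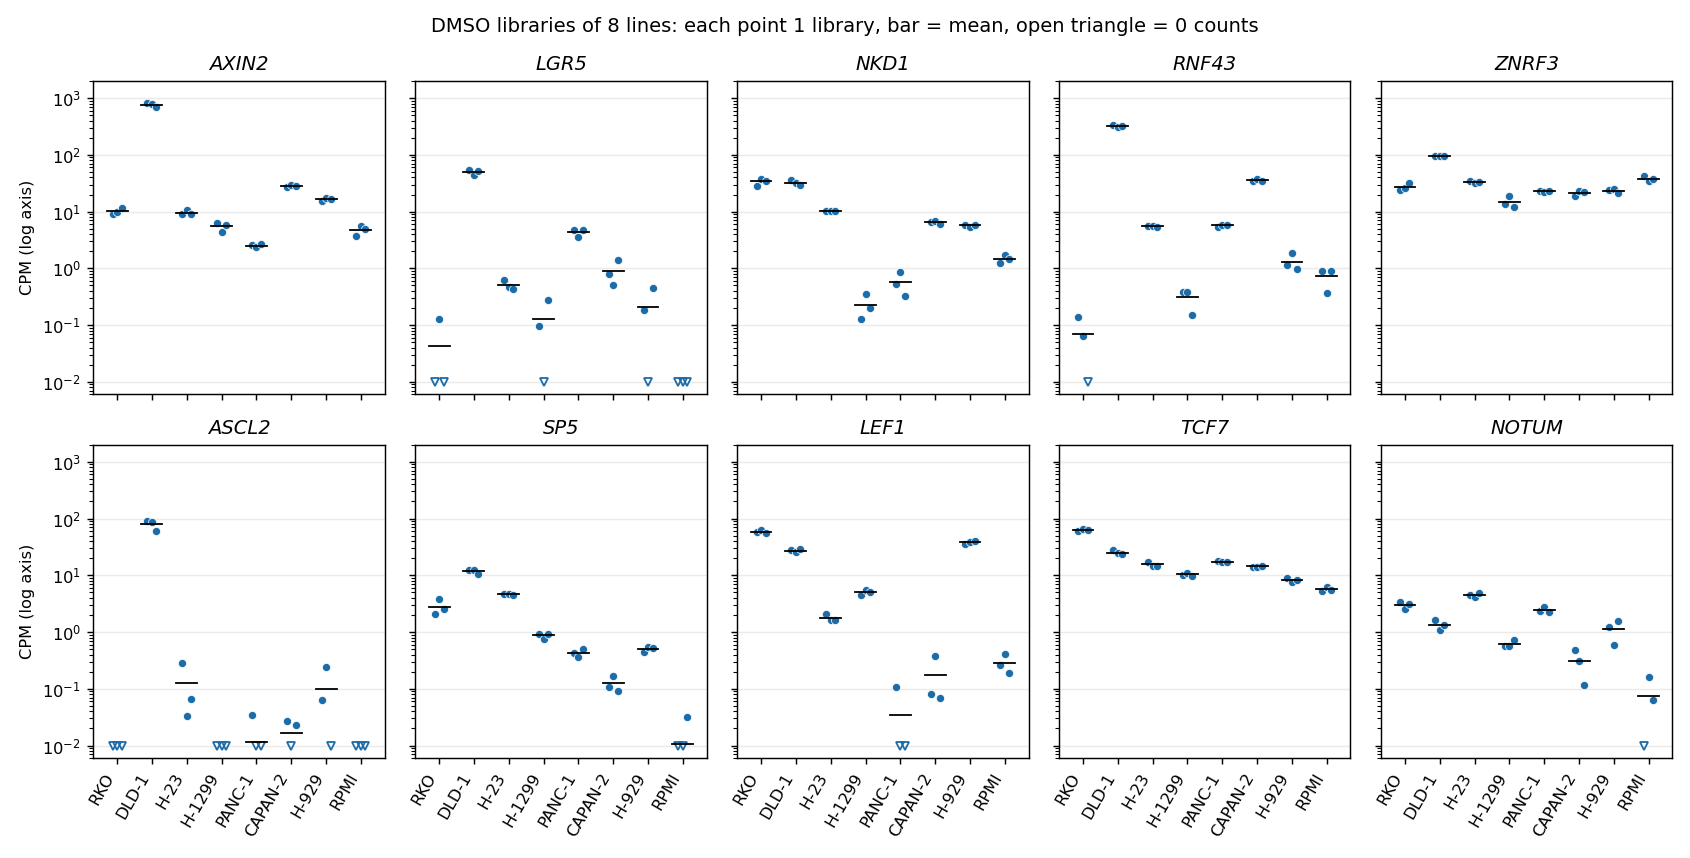
Level of each of the 10 targets in the 24 DMSO libraries, in CPM on a log axis, with 1 point per library, a bar for the mean of 3 and an open triangle for 0 counts. DLD-1 stands above every other line for AXIN2, LGR5, RNF43, ZNRF3, ASCL2 and SP5, and RKO has the highest means for NKD1, LEF1 and TCF7.

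AXIN2 encodes a scaffold of the β-catenin destruction complex and is a widely used readout of pathway activity. Its DMSO libraries held 810, 788 and 689 CPM in DLD-1 and 9.11, 9.69 and 11.6 CPM in RKO. The order of the means was DLD-1 (762 ± 64.4), CAPAN-2 (28.1 ± 0.940), H-929 (16.4 ± 0.875), RKO (10.1 ± 1.29), H-23 (9.59 ± 0.866), H-1299 (5.49 ± 1.04), RPMI (4.80 ± 0.962) and PANC-1 (2.52 ± 0.165). The pairs of neighbours that did not differ beyond their spread were RKO and H-23 (adjusted p = 0.312) and H-1299 and RPMI (adjusted p = 0.244). Every other step passed the test, and the step from DLD-1 to CAPAN-2 was 4.76 on the log2 scale.

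NKD1, which binds Dishevelled and dampens the signal, was at a like level in both colon lines, with 28.7, 38.1 and 35 CPM in RKO and 35.4, 32.4 and 28.9 CPM in DLD-1. The ranges overlapped (adjusted p = 0.623 between these neighbours). H-23 followed with 10.2 ± 0.0300 CPM, then CAPAN-2 (6.49 ± 0.345) and H-929 (5.70 ± 0.268), which did not differ (adjusted p = 0.442). RPMI (1.47 ± 0.249), PANC-1 (0.570 ± 0.270) and H-1299 (0.230 ± 0.116) were lower, each step passing the test.

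NOTUM is a secreted enzyme that removes the lipid from Wnt ligands and so inactivates them. It was scarce in all lines: 4.53 ± 0.311 CPM in H-23, 3.01 ± 0.445 in RKO, 2.46 ± 0.259 in PANC-1, 1.34 ± 0.255 in DLD-1, 1.14 ± 0.493 in H-929 and 0.618 ± 0.0835 in H-1299. CAPAN-2 held 0.305 ± 0.188 and RPMI 0.0747 ± 0.0813 CPM. The steps from H-23 to RKO, from RKO to PANC-1 and from DLD-1 to H-929 did not pass the test, and the other 4 did.

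RNF43 and ZNRF3 are related membrane ubiquitin ligases that remove Frizzled from the cell surface. RNF43 spanned the widest range of the pair: 336, 311 and 323 CPM in DLD-1, and 2, 1 and 0 counts in the RKO libraries. CAPAN-2 was second with 35.9 ± 1.53 CPM, followed by PANC-1 (5.73 ± 0.263) and H-23 (5.49 ± 0.125), which did not differ (adjusted p = 0.652), and by H-929 (1.32 ± 0.474), RPMI (0.728 ± 0.317) and H-1299 (0.308 ± 0.134). ZNRF3 was present in every line, from 14.7 ± 3.47 CPM in H-1299 to 96.0 ± 1.04 CPM in DLD-1. Between those ends RPMI stood at 38.2 ± 3.67, H-23 at 33.8 ± 1.55, RKO at 27.5 ± 4.06, H-929 at 23.5 ± 1.84, PANC-1 at 22.8 ± 0.362 and CAPAN-2 at 21.4 ± 2.08 CPM. Of the 5 steps among these 6 lines only that from H-23 to RKO passed the test (adjusted p = 0.0365).

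LGR5, a receptor for R-spondins and a marker of intestinal stem cells, reached 53.1, 44.9 and 51.7 CPM in DLD-1. PANC-1 was second (4.34 ± 0.697), and the remaining lines were at 0.900 ± 0.452 CPM (CAPAN-2) or below, with no neighbouring pair among them passing the test. RKO had 0, 2 and 0 counts, and RPMI had none in any library, which allows up to 0.195 CPM at its shallowest library (3 counts). ASCL2, the transcription factor that works with LGR5 in the same stem cells, held 89.1, 86.6 and 60.4 CPM in DLD-1. It had no count in the 9 DMSO libraries of RKO, H-1299 and RPMI and at most 13 counts in any DMSO library of the other 4 lines.

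SP5, a zinc-finger transcription factor induced by Wnt in many tissues, stood at 11.7 ± 0.852 CPM in DLD-1, 4.63 ± 0.147 in H-23, 2.79 ± 0.917 in RKO, 0.874 ± 0.0919 in H-1299, 0.500 ± 0.0542 in H-929, 0.429 ± 0.0684 in PANC-1 and 0.124 ± 0.0408 in CAPAN-2, with 1 count in all of RPMI. H-929 and PANC-1 were the one pair of neighbours that did not differ (adjusted p = 0.556). LEF1 and TCF7 encode DNA-binding partners of β-catenin. LEF1 was highest in RKO (57.7, 64 and 55.2 CPM), then in H-929 (38.4 ± 2.29) and DLD-1 (27.2 ± 1.71), and stood at 5.01 ± 0.545 in H-1299, 1.78 ± 0.282 in H-23, 0.284 ± 0.109 in RPMI, 0.176 ± 0.173 in CAPAN-2 and 0.0352 ± 0.0610 in PANC-1. The step from RPMI to CAPAN-2 was the one that did not pass (adjusted p = 0.175). TCF7 was highest in RKO (61.1, 65.8 and 62.7 CPM) and DLD-1 (27.4, 24.5 and 23.4 CPM), and the other lines lay between 17.4 ± 0.571 (PANC-1) and 5.64 ± 0.499 (RPMI). In TCF7, PANC-1 did not differ from H-23 (adjusted p = 0.116), nor H-23 from CAPAN-2 (adjusted p = 0.273).

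Levels can be set between genes only per length. Per kilobase of annotated exon, DLD-1 held 146 CPM of AXIN2, 43.1 of RNF43, 42.5 of ASCL2, 13.8 of ZNRF3, 9.50 of LGR5, 5.69 of SP5, 5.08 of LEF1, 2.49 of TCF7, 1.85 of NKD1 and 0.444 of NOTUM. RKO held 11 CPM per kilobase of LEF1, 6.28 of TCF7, 3.94 of ZNRF3, 1.95 of NKD1, 1.94 of AXIN2, 1.35 of SP5 and 0.997 of NOTUM. The length used was that of all annotated exons of a gene, whichever transcripts the cells express. AXIN2 led the set in DLD-1 by this measure and in CPM. In RKO LEF1 led by this measure, but in CPM TCF7 stood above it (63.2 against 58.9). The order of these 2 genes in RKO thus depends on the length used (10.063 kb for TCF7 and 5.361 kb for LEF1).

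The colon lines were then set against each other in their own 6 DMSO libraries. Of the 10 targets, 9 differed (78.6% of 16770 genes did), 6 of them higher in DLD-1 (background 41.8%) and 3 lower (background 36.7%). The median log2 difference, DLD-1 minus RKO, was 1.86 over the targets and 0.08 over all genes tested. RNF43, LGR5 and ASCL2, near or at 0 in RKO, entered this fit through their level in DLD-1. No shift of the set is therefore read from the counts or the median. Among the rest, AXIN2, ZNRF3 and SP5 were higher in DLD-1, LEF1, TCF7 and NOTUM were lower, and NKD1 was not called. AXIN2 was 70.6-fold higher in DLD-1 (log2 6.14 ± 0.0894 SE, adjusted p = 1.0e-12), ZNRF3 3.30-fold (1.72 ± 0.0817, adjusted p = 7.9e-09) and SP5 4.01-fold (2.00 ± 0.217, adjusted p = 7.5e-06).

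The other 3 targets higher in DLD-1 were near or at 0 in RKO. The summed counts of RNF43 were 36453 in DLD-1 and 3 in RKO, a ratio of 5816 after correction for depth (95% counting interval 1990 to 28203). Those of LGR5 were 5652 and 2, a ratio of 1353 (374 to 11172). ASCL2 had 8974 counts in DLD-1 and 0 in RKO, so it was at least 1432-fold higher, with 3 counts over the RKO group as the floor. These intervals and floors cover counting error only.

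LEF1, TCF7 and NOTUM went the other way. LEF1 was lower in DLD-1 by log2 -1.18 ± 0.0842 (adjusted p = 2.2e-07), TCF7 by -1.40 ± 0.0703 (adjusted p = 1.2e-08) and NOTUM by -1.23 ± 0.249 (adjusted p = 0.00093). The libraries of the 2 lines did not overlap for any of the 3. NKD1 differed by -0.15 ± 0.104 (adjusted p = 0.212). In bulk RNA, fewer cells with a transcript and less of it per cell cannot be told apart.

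**Figure D2:**
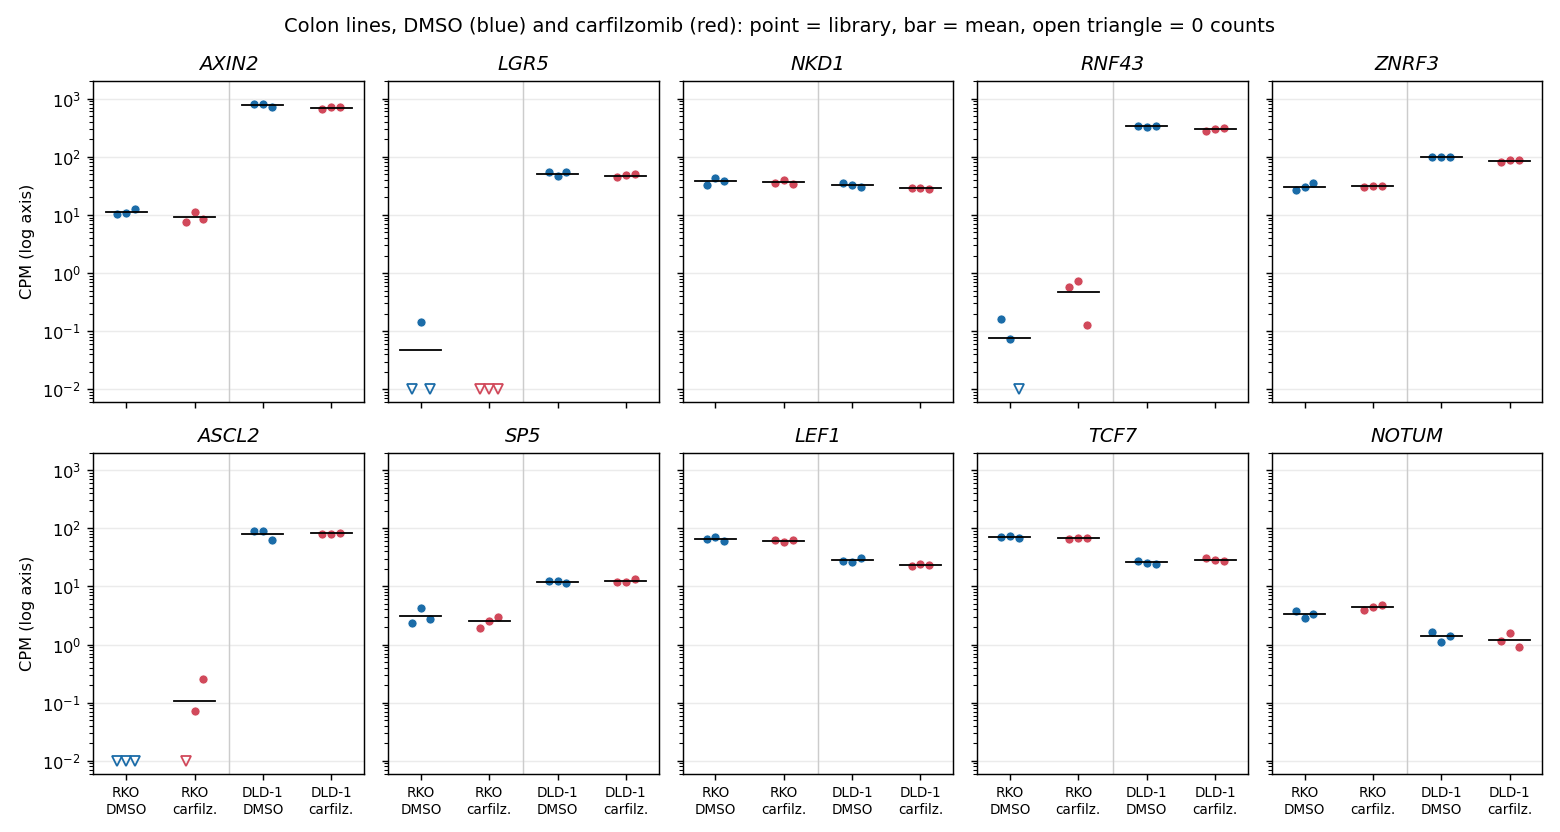
Level of the 10 targets in the 12 libraries of the colon lines, in CPM on a log axis (scaled within each line), DMSO in blue and carfilzomib in red, with 1 point per library, a bar for the mean of 3 and an open triangle for 0 counts. The step between the lines is far larger than the step between treatments for AXIN2, LGR5, RNF43 and ASCL2, and in DLD-1 the carfilzomib points of ZNRF3 lie below the DMSO points.

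The next question was whether carfilzomib changed these targets in the colon lines. For the targets, levels from here on are CPM scaled within the 6 libraries of a line, which can differ from the scale used between lines, and changes are log2 fold changes, carfilzomib minus DMSO, tested in each line by edgeR as above. In RKO, 7 of the 10 passed the filter on low counts and 0 of the 7 changed, where 8.90% of all 14522 genes tested did (3.62% higher, 5.29% lower). In edgeR's fit 0 of the 7 had an unadjusted p under 0.05, where 3404 of the 14522 genes did. DESeq2's Wald test also called 0 of the 7. The median change was -0.06 over the 7 targets and 0.00389 over all genes.

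In RKO, AXIN2 went from 10.3, 10.9 and 12.6 to 7.5, 11.4 and 8.43 CPM, a change of -0.31 ± 0.183 (SE) with overlapping libraries (adjusted p = 0.335). NOTUM went from 3.84, 2.83 and 3.40 to 3.94, 4.39 and 4.85 CPM; the groups did not overlap, but the change of 0.39 ± 0.229 missed the threshold (adjusted p = 0.343). The other 5 tested targets lay between -0.31 ± 0.306 (SP5) and 0.01 ± 0.0967 (ZNRF3). NKD1 (-0.05 ± 0.10), LEF1 (-0.10 ± 0.0706) and TCF7 (-0.06 ± 0.0562) had the smallest errors of the 7 beside ZNRF3. The untested targets were RNF43 (2, 1 and 0 counts with DMSO, 9, 10 and 2 with carfilzomib), ASCL2 (0, 0 and 0, then 0, 1 and 4) and LGR5 (0, 2 and 0, then none).

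In DLD-1 all 10 targets were tested and 5 fell, none rose (23% of 16580 genes were called, 12.1% lower and 10.9% higher). Scaling by library totals would make 60.3% and not 47.5% of the called genes higher ones in DLD-1, and 60.8% and not 40.6% in RKO. The median change was -0.17 over the 10 targets and 0.00145 over all genes. AXIN2 fell from 817, 808 and 723 to 667, 717 and 705 CPM, by 11% (log2 -0.17 ± 0.0525, adjusted p = 0.0414). RNF43 fell from 339, 319 and 338 to 278, 301 and 310 CPM (-0.16 ± 0.0502, adjusted p = 0.0385). ZNRF3 fell from 98.0, 97.6 and 100.4 to 82.4, 87.2 and 86.5 CPM (-0.21 ± 0.0447, adjusted p = 0.00699).

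NKD1 (-0.21 ± 0.0679, adjusted p = 0.0457) and LEF1 (-0.27 ± 0.0713, adjusted p = 0.0202) made up the 5, and each of the 5 had no carfilzomib library as high as its lowest DMSO library. The share of all genes, or of all called genes, without such overlap is not given. Here and elsewhere a lack of overlap therefore describes the libraries and adds no support to a call. The largest of the 5 falls, that of LEF1, was 17% of the DMSO level. LGR5 (-0.12 ± 0.0708, adjusted p = 0.274), ASCL2 (0.01 ± 0.108), SP5 (0.04 ± 0.0927), TCF7 (0.15 ± 0.0705, adjusted p = 0.154) and NOTUM (-0.19 ± 0.251) did not pass. The general epithelial markers EPCAM, CDH1, KRT8, KRT18 and KRT19 summed to 8088 to 9470 CPM with DMSO and 10399 to 10745 with carfilzomib in DLD-1 on the scale used between lines, with 3 of 5 higher and 1 lower, and their part in the falls was not tested.

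Most of these 5 calls sat close to the threshold. With 1 fit of all 48 libraries none of the 5 passed (adjusted p from 0.154 for AXIN2 to 0.526 for NKD1), at nearly the same fold changes. ZNRF3 alone kept its call without any single library. AXIN2 lost it without DMSO replicate 1 or 2 or any 1 carfilzomib replicate (-0.19 to -0.14), NKD1 without the same 5 libraries (-0.22 to -0.15), RNF43 without DMSO replicate 1 or carfilzomib replicate 1 or 2 (-0.17 to -0.12), and LEF1 without carfilzomib replicate 1 or 3 (-0.27 to -0.24).

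The test of the difference between the 2 responses, DLD-1 minus RKO, called 1 of the 10 targets (6.0% of 17445 genes were called, 3.04% in the same direction and 2.96% in the other). That gene was RNF43, at -2.97 ± 0.828 (adjusted p = 0.0457). It was under the filter in RKO, with 3 and 21 summed counts, and entered this fit through its high level in DLD-1, so the value is given as a description and no difference in response is read from it. The call was lost without any 1 library except RKO DMSO replicate 1 and RKO carfilzomib replicate 3, with values from -3.07 to -2.15 (adjusted p 0.0525 to 0.165), and in the fit of all 48 libraries (-2.97, adjusted p = 0.0665). For the other 4 targets that fell in DLD-1 the difference between the lines did not pass, at 0.17 ± 0.153 for AXIN2, -0.17 ± 0.132 for NKD1, -0.22 ± 0.0980 for ZNRF3 (unadjusted p = 0.0410, adjusted p = 0.221) and -0.18 ± 0.103 for LEF1. These tests on all 12 libraries therefore did not separate the 2 lines in their response of those 4 genes. ZNRF3 did pass in 1 of the 12 fits that left out 1 library (adjusted p = 0.0298).

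**Figure D3:**
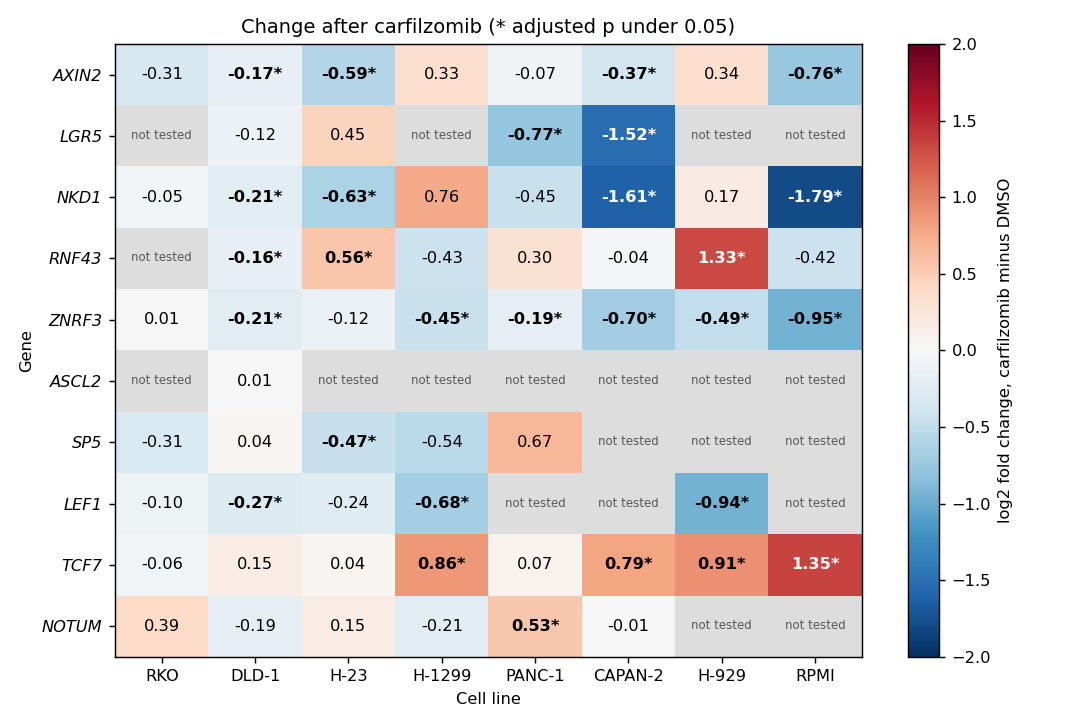
Change of each target after carfilzomib in each line, as the log2 fold change of carfilzomib minus DMSO (blue lower, red higher, scale from -2 to 2), with an asterisk for an adjusted p under 0.05 and grey for targets under the filter on low counts. AXIN2, NKD1, ZNRF3 and LEF1 are called lower wherever they are called, and TCF7 is called higher in 4 lines.

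Across all 8 lines, 60 of the 80 pairs of target and line could be tested and 28 were called, 7 higher and 21 lower. Over all genes the 2 directions were closer, from 26.4% higher and 26.2% lower in H-929 to 3.62% higher and 5.29% lower in RKO. The pairs are not independent, as a gene counts once per line. ZNRF3 made up 6 of the falls and AXIN2 and NKD1 4 each, and TCF7 made up 4 of the rises. The split thus mostly describes these genes. A change of 2-fold was reached by 5 of the 28, LGR5 and NKD1 in CAPAN-2, NKD1 and TCF7 in RPMI and RNF43 in H-929. The share of all called genes at 2-fold is not given, so the size of the targets' changes is not ranked against other genes. In H-23, 4 of 9 tested targets were called (33.9% of all genes), in H-1299 3 of 8 (61.2%), in PANC-1 3 of 8 (38.7%), in CAPAN-2 5 of 7 (52.5%), in H-929 4 of 6 (52.6%) and in RPMI 4 of 5 (63.4%). In H-23, CAPAN-2, H-929 and RPMI the share of targets called was above that of all genes, and in H-1299 and PANC-1 it was below or near it. With 5 to 9 targets tested in these lines, 1 call more or fewer moves a share far. No excess of calls among the targets is therefore read from these shares. The test of a difference in response among the 8 lines called 9 of the 10 targets (67.7% of 22309 genes), all but NOTUM (adjusted p = 0.148), and 6 to 7 when 1 replicate number was left out. LGR5 lost its call in 3 of those 3 fits (adjusted p 0.0785 to 0.237), and ASCL2 and SP5 lost it in 2 of 3 each. LGR5, ASCL2, SP5, RNF43 and LEF1 were under the filter in at least 1 line and entered through lines where they are higher, so no difference is read from them. AXIN2, NKD1, ZNRF3 and TCF7 were tested in all 8 lines and were called in all 3 of those fits, with the smallest adjusted p for TCF7 (8.1e-15).

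Of the inhibitors that act inside the cell, AXIN2 fell in H-23, CAPAN-2 and RPMI as well as in DLD-1. In H-23 it went from 9.92, 11.7 and 9.80 to 6.17, 7.15 and 7.35 CPM (-0.59 ± 0.115, adjusted p = 0.0012), and in CAPAN-2 from 25.4, 26.8 and 25.6 to 19.4, 20.6 and 20.1 CPM (-0.37 ± 0.0673, adjusted p = 0.00029). In RPMI it went from 3.37, 4.99 and 4.26 to 2.92, 2.48 and 2.14 CPM (-0.76 ± 0.221, adjusted p = 0.00856), and that call was lost without DMSO replicate 2 (-0.62, adjusted p = 0.0512). In H-1299 (0.33 ± 0.163, adjusted p = 0.0932), PANC-1 (-0.07 ± 0.152) and H-929 (0.34 ± 0.170, adjusted p = 0.112) AXIN2 was not called. In every line where AXIN2 was called, its carfilzomib libraries all lay below its DMSO libraries.

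NKD1 was called in the same 4 lines as AXIN2. In 3 of them, H-23, CAPAN-2 and RPMI, it had the largest fall of the targets tested. That order was not settled in H-23, where the fall of AXIN2 was within its error. Nor was it settled in CAPAN-2, where the change of LGR5 was -1.52 ± 0.520. LEF1, under the filter, went from 17 summed counts to 1 in CAPAN-2 and from 20 to 2 in RPMI. In CAPAN-2 NKD1 went from 6.20, 6.19 and 5.6 to 1.93, 1.91 and 2.05 CPM (-1.61 ± 0.160, adjusted p = 9.5e-07). In RPMI it went from 1.10, 1.52 and 1.25 to 0.441, 0.187 and 0.490 CPM (-1.79 ± 0.411, adjusted p = 0.0018), on 19 to 46 counts per DMSO library and 4 to 11 per carfilzomib library. In H-23 it went from 11.2, 11.2 and 11 to 6.42, 6.72 and 8.37 CPM (-0.63 ± 0.114, adjusted p = 0.00074). The values in H-929 overlapped, at 5.29, 4.87 and 5.37 against 5.94, 3.45 and 8.08 CPM (0.17 ± 0.312). Those in H-1299 and PANC-1 were under 1 CPM.

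NOTUM, the secreted inhibitor, was called only in PANC-1, where it rose from 2.44, 2.81 and 2.27 to 3.54, 4.05 and 3.29 CPM (0.53 ± 0.154, adjusted p = 0.0148). The call was lost without DMSO replicate 3 (0.46, adjusted p = 0.0667), without carfilzomib replicate 2 (0.44, adjusted p = 0.0701), and in 1 fit of all 48 libraries (0.52, adjusted p = 0.385). In H-23, the line with most NOTUM, the change was 0.15 ± 0.126.

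**Figure D4:**
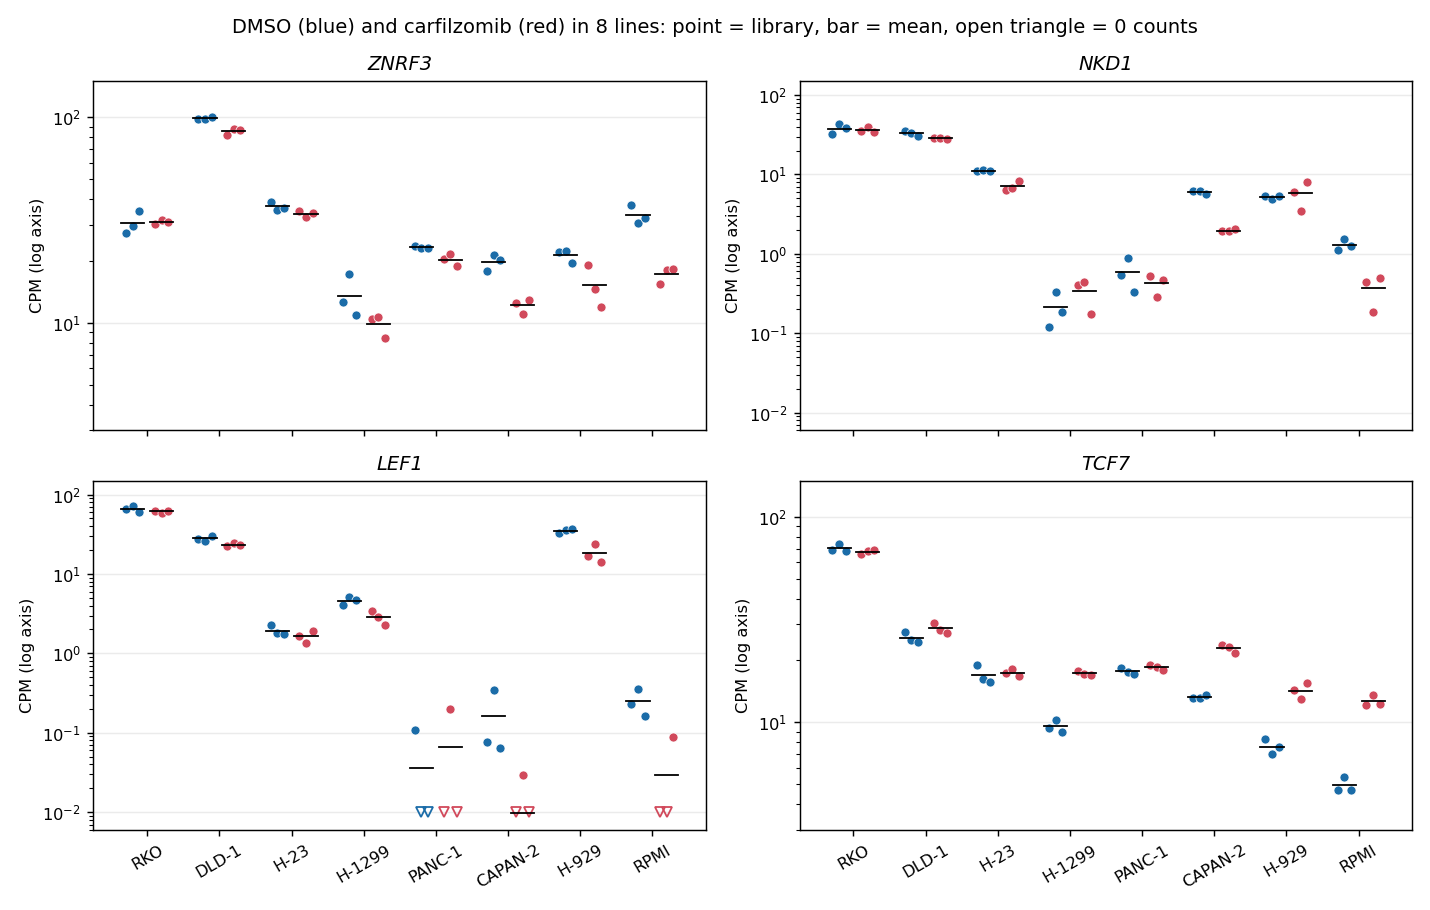
Level of ZNRF3, NKD1, LEF1 and TCF7 in all 48 libraries, in CPM on a log axis (scaled within each line), DMSO in blue and carfilzomib in red, with 1 point per library, a bar for the mean of 3 and an open triangle for 0 counts. ZNRF3 is lower with carfilzomib in all lines but RKO, though in H-23 the change did not pass the test, and TCF7 is higher in both myeloma lines, CAPAN-2 and H-1299.

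Of the ubiquitin ligases, ZNRF3 was the target called in most lines. It fell in 6 of the 8, by log2 -0.19 ± 0.0591 in PANC-1, -0.21 in DLD-1, -0.45 ± 0.155 in H-1299, -0.49 ± 0.171 in H-929, -0.70 ± 0.0937 in CAPAN-2 and -0.95 ± 0.0992 in RPMI. In RPMI its libraries went from 37.6, 30.6 and 32.5 to 15.4, 18.1 and 18.3 CPM (adjusted p = 1.7e-06), and in CAPAN-2 from 17.8, 21.3 and 20.3 to 12.5, 11.1 and 13 CPM (adjusted p = 2.0e-05). The treatment groups did not overlap in these 6 lines, with carfilzomib the lower, nor in H-23, where the change was -0.12 ± 0.0527 (adjusted p = 0.0957).

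The smaller ZNRF3 calls depended on single libraries. In H-1299 the call was lost without DMSO replicate 2 (-0.25) or carfilzomib replicate 3 (-0.36). In PANC-1 it was lost without DMSO replicate 1 (-0.19) or carfilzomib replicate 3 (-0.15). In H-929 it was lost without DMSO replicate 1 (-0.48) or 2 (-0.47) or carfilzomib replicate 2 (-0.49) or 3 (-0.37).

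RNF43, the other ligase, rose in H-23 from 6.12, 6.08 and 5.75 to 9.46, 9.24 and 7.81 CPM (0.56 ± 0.118, adjusted p = 0.0021) while ZNRF3 was not called there. In H-929 it rose from 1.02, 1.68 and 0.883 to 1.81, 1.94 and 5.35 CPM (1.33 ± 0.502, adjusted p = 0.0385). Carfilzomib replicate 3 stands far above the others there, and without it the change was 0.61 (adjusted p = 0.344), while the call was also lost without DMSO replicate 1 (1.21) or 3 (1.14). The antisense partner TSPOAP1-AS1 stood at 7.59 CPM in the DMSO libraries of H-929 and rose by 1.47 ± 0.169 (adjusted p = 6.0e-06), and its part in the RNF43 counts was not tested. In H-23 that partner was at 0.310 CPM and not called. RNF43 was not called in CAPAN-2, its second highest line (32.7, 34.7 and 31.9 against 30.9, 31.1 and 34.6 CPM, -0.04 ± 0.0660).

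The stem cell receptor LGR5 fell in both pancreatic lines. In PANC-1 it went from 4.77, 3.62 and 4.87 to 2.35, 2.74 and 2.67 CPM (-0.77 ± 0.156, adjusted p = 0.0015), with no overlap, and that call was lost in 1 fit of all 48 libraries (adjusted p = 0.107). In CAPAN-2 it went from 0.737, 0.472 and 1.28 to 0.225, 0.118 and 0.590 CPM (-1.52 ± 0.520, adjusted p = 0.0237), the one call among the 28 with overlapping libraries. It was lost without DMSO replicate 3 (-1.04), carfilzomib replicate 1 (-1.33) or carfilzomib replicate 2 (-1.12). ASCL2 could be tested only in DLD-1. Under the filter in H-929, ASCL2 went from 0.0911 to 0.872 CPM on average, without overlap. LGR5 (0.193 to 0.571 CPM) and SP5 (0.454 to 0.965 CPM) were also higher on average there, with overlapping libraries. The higher group of these 3 genes held a mean of at most 9.33 counts, so no change is read from them.

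Among the transcription factors, LEF1 fell and TCF7 rose in H-1299 and H-929, the lines in which both were called. LEF1 fell in H-929 from 32.6, 35.4 and 36.5 to 16.6, 23.7 and 14.1 CPM (-0.94 ± 0.165, adjusted p = 0.00026) and in H-1299 from 4.06, 5.08 and 4.71 to 3.46, 2.84 and 2.30 CPM (-0.68 ± 0.181, adjusted p = 0.0054). Together with DLD-1 that makes 3 of the 5 lines in which it was tested, without overlap in any of the 3. SP5 was called only in H-23, where it fell from 5.15, 5.20 and 4.79 to 4.10, 3.72 and 3.20 CPM (-0.47 ± 0.143, adjusted p = 0.0218). That call was lost without DMSO replicate 1 (-0.46) or 2 (-0.45) or carfilzomib replicate 3 (-0.38), and in 1 fit of all 48 libraries (-0.49, adjusted p = 0.258).

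TCF7 rose in 4 lines. It went from 9.43, 10.3 and 9.0 to 17.8, 17.2 and 17 CPM in H-1299 (0.86 ± 0.0891, adjusted p = 2.7e-06) and from 13.1, 13.2 and 13.6 to 23.8, 23.4 and 21.8 CPM in CAPAN-2 (0.79 ± 0.0746, adjusted p = 6.0e-07). In H-929 it went from 8.26, 6.98 and 7.61 to 14.4, 12.9 and 15.5 CPM (0.91 ± 0.190, adjusted p = 0.0011), and in RPMI from 4.71, 5.45 and 4.69 to 12.1, 13.6 and 12.3 CPM (1.35 ± 0.136, adjusted p = 1.2e-06). The groups stood clear of each other in all 4. In RKO, H-23 and PANC-1 the change was between -0.06 and 0.07.

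SKP1, which overlaps TCF7 on the other strand, stood at 149 to 268 CPM in the DMSO libraries and was called higher in 7 of the 8 lines. Where TCF7 rose, its change was 0.95 in CAPAN-2, 0.71 in H-1299, 0.30 in RPMI and 0.32 in H-929, and 0.35 in H-23 and 0.33 in PANC-1, where TCF7 did not. Its part in the TCF7 counts was not tested.

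In H-929, RPMI, H-1299 and CAPAN-2, cell type markers also changed, and their sums are on the scale used between lines. Of all genes tested, 26.4% were called higher and 26.2% lower in H-929, and 31.3% and 32.2% in RPMI. In H-1299 these shares were 29.8% and 31.3%, and in CAPAN-2 25.7% and 26.7%. The plasma cell markers SDC1, TNFRSF17, PRDM1, IRF4, XBP1, MZB1 and CD38 summed to 7213 to 7763 CPM with DMSO and 3988 to 4079.6 with carfilzomib in H-929, and to 3039 to 3315 and 1332 to 1561 in RPMI. All 7 fell in each line, and none was at 0. The pancreatic markers KRT7, MUC1, CFTR, SOX9, PDX1, CPA1 and PRSS1 summed to 7.90 to 8.88 CPM with DMSO and 30.6 to 36.1 with carfilzomib in H-929, with 4 of 4 tested higher and CPA1 and PRSS1 at 0 with DMSO. In H-1299 the 5 general epithelial markers summed to 960.8 to 1070 CPM with DMSO and 376 to 409 with carfilzomib, with 2 of 2 tested lower and CDH1 at 0 with DMSO. The pancreatic markers went from 41.9 to 45.3 down to 13.7 to 15.1 CPM there, with 2 of 3 tested lower, mostly SOX9. In CAPAN-2 the epithelial markers went from 13826 to 14759 CPM to between 11315 and 11457, with 3 of 5 lower, 1 higher and none at 0. Its pancreatic markers went from 1463 to 1567 CPM down to between 1257 and 1313, with 2 of 4 tested lower and none higher. The epithelial markers of H-929 went from 45.8 to 60.1 CPM up to between 85.6 and 92.3, with 2 of 2 tested higher. Of the 4 pancreatic markers tested in RPMI, 2 were higher and 1 lower. The part of these shifts in the changes of the targets in the 4 lines was not tested.

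The rest of the pathway was described with 8 lists, of ligands, ligand secretion, receptors, R-spondins with their other receptors, antagonists, the destruction complex with Dishevelled and tankyrase, nuclear partners of β-catenin, and other reported targets. Baseline levels of these genes are on the scale used between lines, and 41.8% of all genes tested were higher in DLD-1 and 36.7% lower. Some list genes were near or at 0 in RKO and entered this fit through their level in DLD-1. In the libraries of RKO alone 4 ligands and 3 antagonists passed the filter, against 10 and 8 here. No shift of a list is therefore read from the baseline counts of these lists. At baseline DLD-1 stood above RKO in 7 of 10 tested ligands and below in 2. WNT5A, a ligand that often signals without β-catenin, was at least 25-fold higher in DLD-1, and WNT7B was at 4.14 against 0.0867 CPM, while WNT11 (0.663 against 5.44 CPM) and WNT2B (5.39 against 12.7 CPM) were lower. Both genes of ligand secretion were higher in DLD-1, PORCN, which attaches the lipid, by 0.45 ± 0.153 and WLS, the carrier of the finished ligand, by 0.53 ± 0.0740.

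Among 11 receptors tested 5 were higher in DLD-1 and 2 lower. The tyrosine kinase receptor ROR1 was at 30.2 against 0.244 CPM and FZD7 at 61.6 against 13.8 CPM, whereas FZD6 (62.1 against 95.1 CPM) and FZD3 (42.4 against 47 CPM) were lower. LGR4 and LGR6, the R-spondin receptors related to LGR5, were both higher in DLD-1, LGR4 at 44.4 against 11.7 CPM and LGR6 with 1099 against 2 counts. Of 8 antagonists 6 were higher, among them APCDD1 (1.57 against 0.0278 CPM) and DKK3 (1.13 against 0.0278 CPM), and TRABD2A (5.12 against 34.2 CPM) and KREMEN2 (14.7 against 19.8 CPM) were lower.

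Of 17 genes of the destruction complex list 6 were higher in DLD-1 and 8 lower. CTNNB1, the gene of β-catenin, stood at 665 ± 12.4 against 264 ± 18.9 CPM (1.26 ± 0.0557, adjusted p = 4.4e-09), and CSNK1A1, casein kinase 1α, at 501 against 300 CPM, while APC2 (6.84 against 23.2 CPM) and the tankyrase TNKS (5.09 against 15.4 CPM) were lower. Of 14 nuclear partners 6 were higher and 6 lower, with the co-repressors TLE4 at 45.9 against 5.34 CPM, CTBP2 at 306 against 95.1 CPM and TLE2 at 4.22 against 45 CPM, and the co-activator BCL9 at 9.67 against 35.6 CPM. Of 15 other targets 8 were higher and 4 lower. TSPAN8 and TNFRSF19 had no count in RKO and were at least 1997-fold and 881-fold higher in DLD-1, and the adhesion receptor CD44 (32.6 against 184 CPM) and SP8 (0.553 against 4.25 CPM) were lower. Members of every list of more than 2 genes except the R-spondin receptors thus went in both directions.

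After carfilzomib 3 of the 62 genes of these lists tested in RKO changed, 4.84% beside 8.90% of all genes. Levels in this paragraph are scaled within the line. TNKS fell from 17.2 ± 3.99 to 9.37 ± 2.05 CPM (-0.88, adjusted p = 0.0175), GSK3A, a kinase of the destruction complex, fell from 54.8 ± 2.82 to 45.4 ± 3.68 CPM (-0.27, adjusted p = 0.0402), and MYC rose from 605 ± 23.3 to 674 ± 16.6 CPM (0.16, adjusted p = 0.0335). In DLD-1, where 12.1% of all genes were lower and 10.9% higher, 3 of 12 receptors fell, among them FZD6 (-0.29, adjusted p = 0.0052) and FZD3 (-0.27, adjusted p = 0.0127), and none rose. The destruction complex list had 1 rise, DVL1 (0.33, adjusted p = 0.0081), and 4 falls of 17, with CSNK1A1 (-0.19, adjusted p = 0.0102) and GSK3B (-0.15, adjusted p = 0.0313) among them.

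Of 14 nuclear partners in DLD-1, BCL9L rose (0.25, adjusted p = 0.0106) and 3 fell, TLE2 (-0.73, adjusted p = 0.0065) and TLE4 (-0.26, adjusted p = 0.0063) the furthest among those named by the rule. Other targets split into 5 rises of 15, with CD44 (0.54, adjusted p = 0.00057) and LRP8 (0.42, adjusted p = 0.00012), and 2 falls, PHLDB2 (-0.34, adjusted p = 0.0011) and TNFRSF19 (-0.34, adjusted p = 0.0055). The ligand WNT5B (0.52, adjusted p = 0.0168) and the antagonist KREMEN2 (0.34, adjusted p = 0.0092) also rose.

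In the other lines most receptors that were called were lower, except in H-929. Of the receptors tested, 9 of 13 fell and 0 rose in H-23 (all genes 16.2% lower, 17.7% higher), 9 of 12 fell and 1 rose in H-1299 (31.3% and 29.8%), 9 of 13 fell and 1 rose in PANC-1 (18.2% and 20.5%), and 9 of 11 fell and 1 rose in CAPAN-2 (26.7% and 25.7%). The medians of the list in those lines were -0.37, -0.65, -0.36 and -0.59, beside 0.00247, -0.02, -0.00264 and -0.02 over all genes. RPMI had 6 falls and 2 rises of 13 (32.2% and 31.3%), and H-929 had 5 falls and 7 rises of 13 (26.2% and 26.4%) with a median of 0.91. The lists were chosen with earlier results of these data known, and these counts describe them.

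Likeness to AXIN2 was measured as Pearson's r of log2(CPM + 0.1) over the 8 DMSO line means, among 18918 genes with at least 1 CPM in at least 1 line. The most alike were GPA33 (r = 0.962), an intestinal surface antigen, IGFL2 (r = 0.959) and RASSF10-DT (r = 0.958). GPA33 was at 1.31 CPM in DLD-1, 0.171 in CAPAN-2 and 0 in RKO, H-1299, PANC-1 and RPMI. IGFL2 (33.7 CPM in DLD-1, 1.05 in CAPAN-2) and RASSF10-DT (4.88 and 0.363) were at 0.370 CPM or less in the other lines. Without DLD-1, the line with the most of all 3, r over the remaining 7 lines was 0.767, 0.780 and 0.772. These r values, with or without DLD-1, rest largely on levels near the 0.1 added before the log, so no likeness is read from them. Of the targets ASCL2 was closest to AXIN2 (r = 0.920, rank 41), followed by ZNRF3 (0.764), RNF43 (0.755), LGR5 (0.697), NKD1 (0.666), SP5 (0.582), LEF1 (0.465), TCF7 (0.285) and NOTUM (0.0317). The same limit holds for ASCL2, which was at 0.127 CPM or less outside DLD-1. Without DLD-1 r was 0.647 for NKD1, 0.369 for ASCL2, 0.338 for LEF1, 0.321 for RNF43, 0.0983 for TCF7, 0.0403 for SP5, -0.0479 for ZNRF3, -0.0953 for NOTUM and -0.167 for LGR5. The points share the library preparation and differ in depth, and with 8 lines these values are a description.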

How the data were processed

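RNA was measured in 48 libraries, 3 per line and treatment. The authors deposited raw counts per gene. Per the submitters' processing notes, bcl2fastq 2.19, FastQC, Trimmomatic, HISAT2, DESeq2 and hg38 were named. The counting program, annotation and use of strand are not given in the sources used here. Per the labels' protocols the libraries were stranded preparations of total RNA.

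Counts were tested as deposited with edgeR 4.0.16 in R 4.3.3 (filterByExpr, TMM factors, glmQLFit, glmQLFTest), each line on its own 6 libraries, the colon response difference on 12, the baseline of the colon lines on 6, the baseline of all lines on 24 and the difference of responses between lines on 48. P-values were adjusted by Benjamini-Hochberg over all genes tested, and a gene was called at an adjusted p under 0.05. Standard errors are the fold change over the root of F. The scripts were tested on simulated data. Every pair of replicates differed by more than sampling noise (the smallest chi-square divided by its degrees of freedom was 3.47), so none were merged. Library totals of 9116329 to 64369098 counts set a floor of 3 counts, 0.0484 to 0.306 CPM.

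All 10 targets are named in every line. From each pathway list up to 2 called genes per direction are named, in RKO, DLD-1 and the colon baseline, with a mean of at least 10 counts and no overlap. The 3 genes most like AXIN2 are named. The targets and lists were chosen with earlier results of these data known. Alternatives were DESeq2 size factors, library totals, no filter on low counts, a filter on the mean (at least 10 counts), summed rows of 1 identifier, DESeq2 1.42.0, 1 fit of all libraries, a replicate block, and leaving out each library.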

Additional observations from a re-analysis of the deposited data

Results flagged for a closer look

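RNF43 is listed because the test of the difference between the colon lines' responses to carfilzomib called it. It was under the filter on low counts in RKO and entered the fit through its high level in DLD-1, so no difference in response is read from it. DLD-1 minus RKO was -2.97 ± 0.828 on the log2 scale (edgeR's quasi-likelihood test, adjusted p = 0.0457 over 17445 genes). RKO held 2, 1 and 0 counts with DMSO and 9, 10 and 2 with carfilzomib, a ratio of 7.29 after correction for depth (95% counting interval 2.18 to 38.2), and these groups overlap. DLD-1 held 36453 counts with DMSO, and its response fell by 0.16 on the log2 scale with groups that do not overlap. The call was lost in 10 of the 12 fits that left out 1 library, and in 1 fit of all 48 libraries (adjusted p = 0.0665).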

How the results depend on the processing

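Of the 28 called responses, 14 kept their call in each of the 14 alternatives run for them, namely those of AXIN2 and NKD1 in H-23 and CAPAN-2, NKD1 and ZNRF3 in RPMI, ZNRF3 in CAPAN-2, LEF1 in H-1299 and H-929, RNF43 in H-23 and TCF7 in 4 lines. None of the 28 changed direction. The number of targets called in DLD-1, 5, became 2 with library totals, 0 in 1 fit of all 48 libraries and 1 to 6 when 1 library was left out (1 without carfilzomib replicate 1, 2 without carfilzomib replicate 2 or 3 or DMSO replicate 1, 3 without DMSO replicate 2, 6 without DMSO replicate 3). The number in PANC-1, 3, became 0 in the fit of all 48 libraries and 2 to 3 without 1 library, and the 1 target called in the colon response difference became 0 in that fit and 0 to 1 without 1 library. In H-929 4 became 2 without DMSO replicate 1 (2 to 4 over the 6 fits). Library totals moved the share of calls that were higher from 40.6% to 60.8% over all genes in RKO and from 47.5% to 60.3% in DLD-1, and shifted the median of all genes in H-1299 by -0.11. The replicate numbers did not pair the libraries (correlations of same-numbered deviations -0.0640 to 0.0421, over 0.1 throughout in 0 of 8 lines), though in 2 lines every library correlated best with its own number. With the replicate block, calls in DLD-1 went from 5 to 2 (AXIN2, NKD1 and RNF43 lost theirs), RNF43 in H-929 went to an adjusted p of 0.0707, and the difference of the SP5 response between the 8 lines was no longer called. No other call of a target was lost with the block. Uncalled changes of NOTUM in CAPAN-2 reversed with DESeq2 size factors (0.0050) and in the fit of all 48 libraries (0.00986). Without 1 library, uncalled changes that reversed ranged from -0.44 to 0.33 for NOTUM in CAPAN-2, -0.14 to 0.044 for NKD1 and -0.066 to 0.12 for ZNRF3 in RKO, -0.14 to 0.10 for ASCL2 and -0.030 to 0.075 for SP5 in DLD-1, -0.027 to 0.11 for TCF7 in H-23, -1.19 to 0.00956 for RNF43 and -0.58 to 0.18 for NOTUM in H-1299, -0.093 to 0.00395 for RNF43 in CAPAN-2, -0.16 to 0.40 for NKD1 in H-929, and -0.13 to 3.82 for the colon response difference of LGR5. Some uncalled results also gained a call in edgeR's fit without 1 library. In 1 fit each these were AXIN2 in H-1299 (adjusted p = 0.0460) and H-929 (0.0242), the colon response difference of ZNRF3 (0.0298) and the colon baseline of NKD1 (0.0257). ASCL2 in DLD-1 reached an adjusted p of 0.0315 where its change was reversed. The causes were not tested. Depth limits RNF43, LGR5 and ASCL2 in RKO, with at most 21 counts per group.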
